A study of Homo sapiens with 12 samples.

Results

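The genes described here are *ID1*, *ID2*, *ID3* and *ID4*, the 4 human inhibitor of DNA binding genes, and *ATOH8*, a basic helix-loop-helix gene. They were chosen by name as known direct targets of BMP signaling, and each matched a single row of the 58302 gene identifiers in the count table. Earlier results of these data were known at the choice, so the direction of their BMP responses is not independent evidence. RNA was measured in MIB1-iKO cells, NCIH838 lung cancer cells grown from a single-cell clone, in which Dox switches on Cas9 next to a guide RNA against *MIB1*. The 12 libraries formed 4 groups of 3 replicates. All cells spent 3 days in 50 nmol/L LDN (LDN189193 in the labels and LDN-193189 in the study's methods), which blocks BMP type I receptors, and then received 10 ng/mL BMP4 for 24 hours. In MIB1 WT BMP-off and MIB1 WT BMP-on there was no Dox, while MIB1 KO BMP-off and MIB1 KO BMP-on had 0.5 μg/mL Dox during the first 3 days. BMP-off cells kept LDN together with BMP4, and BMP-on cells had DMSO in its place. Every KO library and no WT library came from Dox-treated cells, so loss of MIB1 and effects of Dox or Cas9 cutting cannot be told apart. Nothing states that replicates came from separate cultures, and p values then measure the spread between these libraries, which may be technical.

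ID proteins have a helix-loop-helix that pairs with E proteins such as TCF3, TCF4 and TCF12, but they lack the basic region that contacts DNA. E proteins held in such pairs cannot bind DNA with their class II partners, the tissue-specific activators of differentiation. *ID* genes are among the quickest transcriptional responses to BMP ligands, because phosphorylated SMAD1, SMAD5 and SMAD9 enter the nucleus with SMAD4 and bind near them. *ATOH8* encodes a DNA-binding relative of the atonal factors and is known as a BMP and SMAD target in endothelium and liver.

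SMAD1 and SMAD5 are known to prefer GC-rich letters such as GGCGCC, and SMAD4 the letters GTCT. In BMP response elements GGCGCC is often followed by GTCT after 5 bases. This paired arrangement was searched on both strands from 5000 bases upstream to 1000 bases downstream of each RefSeq start of a protein-coding gene. It lay near *ID2* and near *ID3*, 1 match each, and not in the windows of *ID1*, *ID4* or *ATOH8*. Of 22199 windows, which belong to 15843 genes, 180 (0.811%) held a match. Both matches are shown because they are the only ones among these genes, with GGCGCC and GTCT in capitals and 5′ to 3′ on the strand of the gene (hg38).
*ID2*, chr2:8678935-8678963, plus strand: cgcgcctGGCGCCagagaGTCTgctccgg
*ID3*, chr1:23562442-23562470, minus strand: ccaccctGGCGCCaggctGTCTggggctg
The *ID2* match begins 3114 bases upstream of the RefSeq start. It falls in an untranslated exon of the longer GENCODE transcript ENST00000234091.8 and inside an intron of the antisense gene *ID2-AS1*. The *ID3* match begins 2962 bases upstream of the gene, where GENCODE v44 annotates no transcript.

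Within the RefSeq promoters, which span 250 bases before to 50 bases after the start, GGCGCC occurred in none of the 5 genes (19.2% of 35116 promoters hold it). GTCT on either strand occurred 3 times in *ID1*, 2 times in *ID2* and in *ID3*, once in *ID4* and 0 times in *ATOH8* (84% of promoters hold it). The E-box letters CANNTG, which bHLH dimers read, occurred 3 times in *ATOH8*, once in *ID2* and in *ID4*, and 0 times in *ID1* and *ID3* (68.7% of promoters hold them). The *ID1* promoter is shown because it held the most GTCT letters without a paired match nearby. GTCT and its reverse complement are in capitals (RefSeq, GRCh38.p14, plus strand).
*ID1*, chr20:31605039-31605338: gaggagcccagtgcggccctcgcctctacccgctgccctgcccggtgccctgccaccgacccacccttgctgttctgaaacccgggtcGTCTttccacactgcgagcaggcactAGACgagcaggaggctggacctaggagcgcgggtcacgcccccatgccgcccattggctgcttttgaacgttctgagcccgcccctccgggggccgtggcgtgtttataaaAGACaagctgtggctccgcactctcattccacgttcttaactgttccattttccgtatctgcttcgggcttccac
A match of letters describes the sequence only, and binding was not measured in these libraries. Only the exact letters and the spacing of 5 bases were searched, so having no match does not show that SMADs do not bind near a gene.

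Total counts per library ranged from 19124010 to 29498000, and 17188 genes passed edgeR's filter on low counts. *MIB1* itself had between 144 and 176 CPM (counts relative to the TMM-scaled library total) in the 6 WT libraries and between 31.0 and 34.4 CPM in the 6 KO libraries. Of 6 lung epithelial markers, 5 were at 1 RPKM (reads relative to transcript length and library total) or more in every library, and *KRT19* was at or below 0.0775 RPKM. The adenocarcinoma marker *NKX2-1*, a lung lineage factor, was at or below 0.0114 RPKM. Endothelial markers summed to at most 0.263 RPKM. The 4 leukocyte markers summed to between 2.10 and 3.22 RPKM, of which *CD14* made up between 1.72 and 2.72 RPKM, while *PTPRC*, the pan-leukocyte marker, was at 0 in every library. Fibroblast markers summed to between 2.18 and 3.76 RPKM with BMP-off and between 4.95 and 6.87 RPKM with BMP-on. Of these, *COL1A1* reached 6.25 RPKM while *COL1A2*, its partner chain, stayed at or below 0.0439 RPKM. Within groups, deviations of gene counts followed the GC content of the transcript in some libraries. Spearman's rho across genes was -0.60 in MIB1 KO BMP-off replicate 2, 0.59 in MIB1 KO BMP-off replicate 3 and -0.43 in MIB1 WT BMP-off replicate 1. These 3 lay beyond a limit of 0.4 in either direction, which was set after the data were seen. At or within it were MIB1 WT BMP-off replicate 3 (0.40), MIB1 KO BMP-on replicate 1 (0.37) and MIB1 KO BMP-on replicate 3 (-0.35). The BMP responses of the 4 tested genes, which rest on the libraries beyond the limit, are also given after a GC correction. Some other results are given after it or without the 3 libraries. The sums and shares of *ID* transcripts and the values of list genes are not.

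The levels of the 5 genes differed widely (see the plot of RPKM on a log axis). Compared per transcript length, *ID3* was highest in every library, followed by *ID1*, *ID2*, *ATOH8* and *ID4*, and the ranges of no neighbouring pair in this order overlapped. *ID3* ranged from 176 to 479.7 RPKM, *ID1* from 41.7 to 119 RPKM and *ID2* from 4.38 to 16.8 RPKM. *ATOH8* ranged from 0.467 to 2.81 RPKM and *ID4* from 0.0185 to 0.166 RPKM. Counts behind these values ran from 5066 to 15277 for *ID3* and from 1284 to 3738 for *ID1*. They ran from 214 to 884 for *ID2*, from 30 to 130 for *ATOH8* and from 1 to 11 for *ID4*. At these depths, counting alone gives a relative error of 1.40% for the lowest *ID3* library and of 18.3% for the lowest *ATOH8* library. *ID4* did not pass the filter on low counts, so 4 of the 5 genes were tested.

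**Figure D1:**
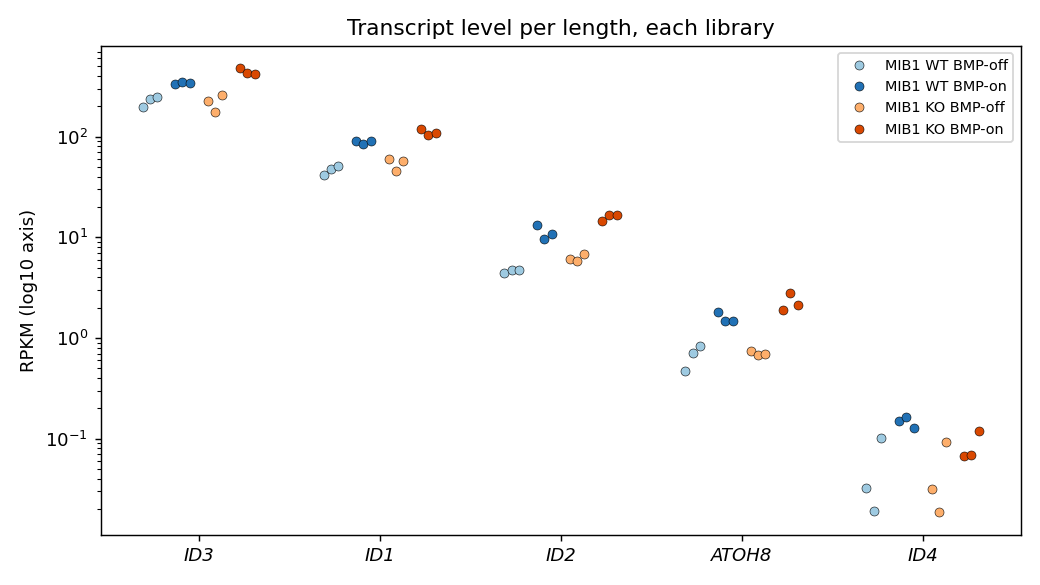
RPKM of each library (points, log10 axis) for the 5 genes, coloured by group, 3 libraries per group. *ID3* libraries lie between 176 and 479.7 RPKM and *ID4* libraries between 0.0185 and 0.166 RPKM, with no overlap between neighbouring genes.

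The transcripts of the 4 *ID* genes together summed to 280.0 ± 31.5 RPKM (SD, n = 3) in MIB1 WT BMP-off and 444 ± 5.13 RPKM (SD, n = 3) in MIB1 WT BMP-on. They summed to 281 ± 49.9 RPKM (SD, n = 3) in MIB1 KO BMP-off and 569 ± 39.0 RPKM (SD, n = 3) in MIB1 KO BMP-on. *ID3* made up between 76.4% and 81.8% of this sum, *ID1* between 16.5% and 20.5% and *ID2* between 1.55% and 3.08%. *ID4* never exceeded 0.0373%. In MIB1 WT cells the share of *ID3* was 81.2%, 81.8% and 81.8% with BMP-off and 76.4%, 78.8% and 77.2% with BMP-on. The ranges did not overlap. The shares of *ID1* and *ID2* moved the other way without overlap, *ID1* from between 16.5% and 17.0% to between 19.0% and 20.5% and *ID2* from between 1.55% and 1.79% to between 2.17% and 3.01%. In MIB1 KO cells the share of *ID3* was 77.6%, 77.5% and 80.2% with BMP-off and 78.2%, 77.8% and 76.9% with BMP-on, and these ranges overlapped. These shares are given as a description, and no test was made of them.

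BMP-on against BMP-off asks how each gene answered release of the pathway. In MIB1 WT cells, *ID1*, *ID2*, *ID3* and *ATOH8* all rose, by 1.52-fold to 2.45-fold. In MIB1 KO cells the same 4 genes rose by 2.05-fold to 3.27-fold. Without overlap, BMP-on libraries lay higher for 11.2% of tested genes in WT cells and for 17.9% in KO cells. Among all genes tested, 1.91% rose in WT cells and 11.1% in KO cells at an adjusted p of at most 0.05. With a log2 fold change of 1 or more required as well, *ID2* and *ATOH8* were called in WT cells (0.349% of genes were) and all 4 in KO cells (1.41% were). RNA was taken from whole cultures, so a change in some cells cannot be told apart from a smaller change in all.

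**Figure D2:**
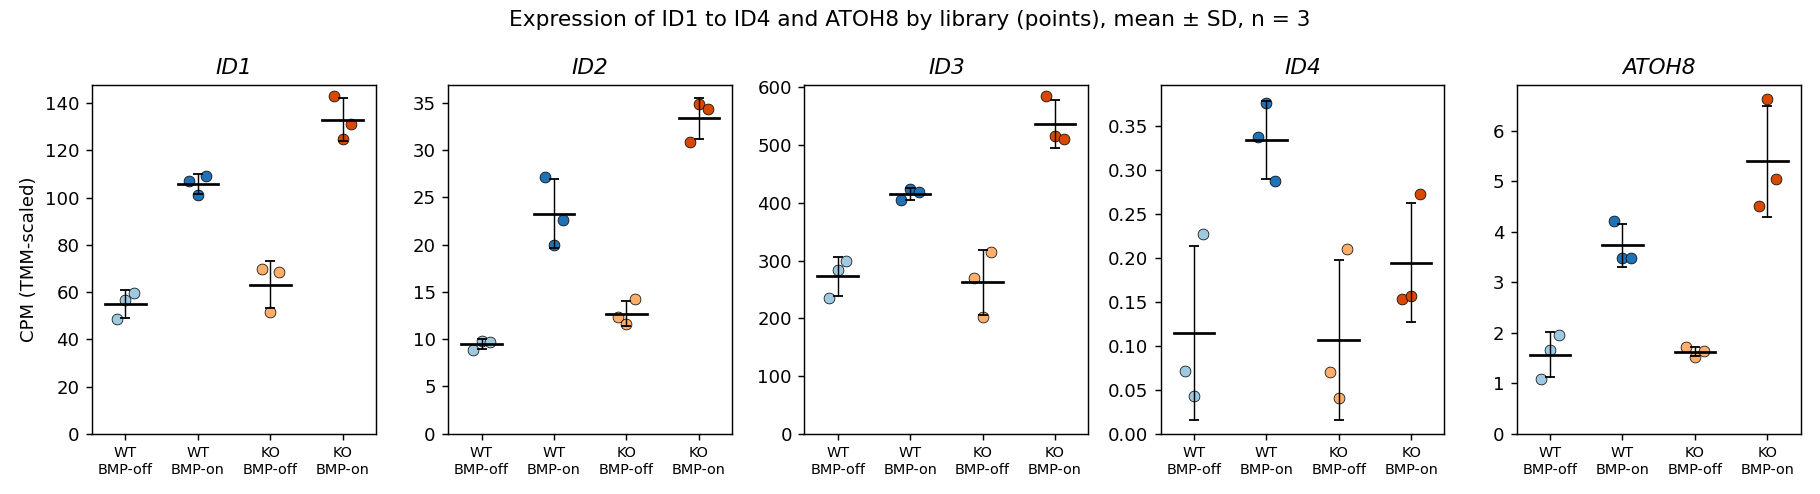
TMM-scaled CPM of each library (points) in the 4 groups for each gene, with the mean (line) and SD (bars) of 3 libraries, on linear axes from 0. For *ID1*, *ID2*, *ID3* and *ATOH8* every BMP-on library lies above every BMP-off library of the same genotype, and for *ID4* this holds in MIB1 WT cells, between 0.0434 and 0.376 CPM. Of all genes tested, 11.2% are separated in this way in MIB1 WT cells and 17.9% in MIB1 KO cells.

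*ID2* (ENSG00000115738, chr2:8678845-8684461, plus strand, GRCh38) had the largest estimated fold response of the 3 tested *ID* genes in both genotypes. In MIB1 WT BMP-off it was at 8.88, 9.78 and 9.73 CPM, and in MIB1 WT BMP-on at 27.2, 20.0 and 22.6 CPM. In MIB1 KO BMP-off it was at 12.3, 11.6 and 14.2 CPM, and in MIB1 KO BMP-on at 30.8, 34.9 and 34.3 CPM. The 4 groups did not overlap, and their order was WT BMP-off, KO BMP-off, WT BMP-on and KO BMP-on. The log2 fold change with BMP-on was 1.29 in WT cells (SE 0.11, 95% interval 1.06 to 1.53, adjusted p = 2.25e-06). In KO cells it was 1.39 (SE 0.11, 95% interval 1.17 to 1.62, adjusted p = 1.80e-07). After the GC correction these were 1.27 and 1.32, and without the 3 libraries with a GC trend 1.24 and 1.44. In rank of log2 fold change, *ID2* stood at 45 of 17188 genes in WT cells and at 107 in KO cells. Whether reads were counted by strand is not stated, and *ID2* shares 145 exon bases with *ID2-AS1* on the other strand. The antisense gene had between 13 and 36 counts, which is between 1.87% and 13.4% of the *ID2* count in the same library.

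*ID1* (ENSG00000125968, chr20:31605283-31606515, plus strand) encodes the family member most often used as a readout of BMP signaling. It was at 48.6, 56.6 and 59.8 CPM in MIB1 WT BMP-off and at 107, 101 and 109 CPM in MIB1 WT BMP-on. In KO cells it was at 69.7, 51.6 and 68.3 CPM with BMP-off and at 143, 125 and 131 CPM with BMP-on. Both BMP-off groups overlapped, while the BMP-on groups stood above them and apart from each other. *ID1* rose by 0.94 on the log2 scale in WT cells (SE 0.11, 95% interval 0.71 to 1.18, adjusted p = 0.000273). In KO cells it rose by 1.08 (SE 0.11, 95% interval 0.84 to 1.31, adjusted p = 1.87e-05). After the GC correction these were 0.88 and 0.86, both past the adjusted p threshold and neither at a log2 fold change of 1.

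*ID3* (ENSG00000117318, chr1:23557926-23559501, minus strand), the most abundant member in these cells, had the smallest estimated fold response of the 4 tested genes in WT cells. With BMP-off it was at 235, 284 and 299.5 CPM in WT cells and at 269, 203 and 314 CPM in KO cells. With BMP-on it was at 404, 424 and 419 CPM in WT cells and at 585, 515 and 511 CPM in KO cells. The BMP-off groups overlapped fully, and the lowest of their libraries was MIB1 KO BMP-off replicate 2. The log2 fold change was 0.61 in WT cells (SE 0.14, 95% interval 0.30 to 0.91, adjusted p = 0.0371) and 1.03 in KO cells (SE 0.14, 95% interval 0.73 to 1.34, adjusted p = 0.000415). After the GC correction it was 0.57 in WT cells (adjusted p = 0.00136) and 0.88 in KO cells (adjusted p = 1.67e-05). The WT call was lost when any 1 of the 6 WT libraries was left out (adjusted p between 0.0510 and 0.114, log2 fold change between 0.51 and 0.68). It was also lost without MIB1 KO BMP-off replicate 1 (adjusted p = 0.0528) and without MIB1 KO BMP-on replicate 3 (adjusted p = 0.0523). Neither library is in this comparison, and both enter through the filter, scaling, estimate of spread and adjustment that all libraries share. With all libraries, the WT call was lost with limma-voom and quantile normalization (adjusted p = 0.0559) and in edgeR with no filter on low counts (adjusted p = 0.112). The same held with limma on log2(RPKM + 1) without a filter (adjusted p = 0.0825).

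*ATOH8* (ENSG00000168874, chr2:85751344-85791383, plus strand) had the largest estimated fold response in KO cells, on low counts. In MIB1 WT BMP-off it was at 1.08, 1.65 and 1.96 CPM, and in MIB1 WT BMP-on at 4.22, 3.49 and 3.48 CPM. In MIB1 KO BMP-off it was at 1.71, 1.53 and 1.64 CPM, and in MIB1 KO BMP-on at 4.52, 6.63 and 5.05 CPM. The BMP-off groups overlapped, and every BMP-on library lay above every BMP-off library. The log2 fold change was 1.27 in WT cells (SE 0.20, 95% interval 0.85 to 1.70, adjusted p = 0.00120). In KO cells it was 1.71 (SE 0.19, 95% interval 1.31 to 2.11, adjusted p = 8.23e-06). After the GC correction these were 1.22 and 1.52, and without the 3 libraries with a GC trend 1.04 and 1.64. *ATOH8* ranked at 49 of 17188 genes in WT cells and at 53 in KO cells. On the log2(RPKM + 1) scale, which compresses low values, the responses were 0.63 and 0.94.

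*ID4* (ENSG00000172201, chr6:19837370-19842197, plus strand) was close to the limit of detection. It had 2, 1 and 5 counts in MIB1 WT BMP-off, 8, 11 and 8 in MIB1 WT BMP-on, 2, 1 and 5 in MIB1 KO BMP-off and 4, 3 and 7 in MIB1 KO BMP-on. The WT groups did not overlap and the KO groups did. Higher WT BMP-on libraries without overlap were also seen for 11.2% of tested genes. Summed over 3 libraries, its level was 0.110 CPM in MIB1 WT BMP-off (exact Poisson 95% interval 0.0474 to 0.216) and 0.334 CPM in MIB1 WT BMP-on (0.220 to 0.486). In KO cells it was 0.103 CPM with BMP-off (0.0446 to 0.204) and 0.197 CPM with BMP-on (0.108 to 0.331). These intervals cover counting error only. With no filter on low counts and 34618 genes tested, its log2 fold change was 1.55 in WT cells (SE 0.61, adjusted p = 0.205) and 0.89 in KO cells (SE 0.69, adjusted p = 0.547). Neither passed, and the unadjusted p in WT cells from edgeR was 0.0109.

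MIB1 KO against WT with BMP-on asks whether the level reached after release differed with MIB1 depletion. All 4 tested genes had a positive log2 fold change, and every KO library lay above every WT library for each of them. Among all genes tested, 11.4% had higher KO libraries without overlap and 1.32% were higher at an adjusted p of at most 0.05. *ID2* passed, with a log2 fold change of 0.52 (SE 0.10, 95% interval 0.31 to 0.74, adjusted p = 0.00582), which is 1.44-fold. *ATOH8* had 0.52 (SE 0.17, 95% interval 0.17 to 0.88, adjusted p = 0.114), *ID3* 0.37 (SE 0.14, 95% interval 0.067 to 0.67, adjusted p = 0.236) and *ID1* 0.34 (SE 0.10, 95% interval 0.11 to 0.56, adjusted p = 0.127). These 3 did not pass, although each 95% interval for the single gene lay above 0. After the GC correction *ID1* (0.28, adjusted p = 0.00113) and *ID3* (0.33, adjusted p = 0.0353) passed beside *ID2*, and *ATOH8* had an adjusted p of 0.0653. With that correction 1270 of 17188 genes passed in either direction, against 3.67% in the main fit. Without the 3 libraries with a GC trend beyond 0.4, all of them BMP-off, the log2 fold changes of the 4 genes lay between 0.34 and 0.53. That fit kept every BMP-on library, so it took no GC trend out of the libraries compared here. The estimates moved little between these fits while the number of genes that passed changed.

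**Figure D3:**
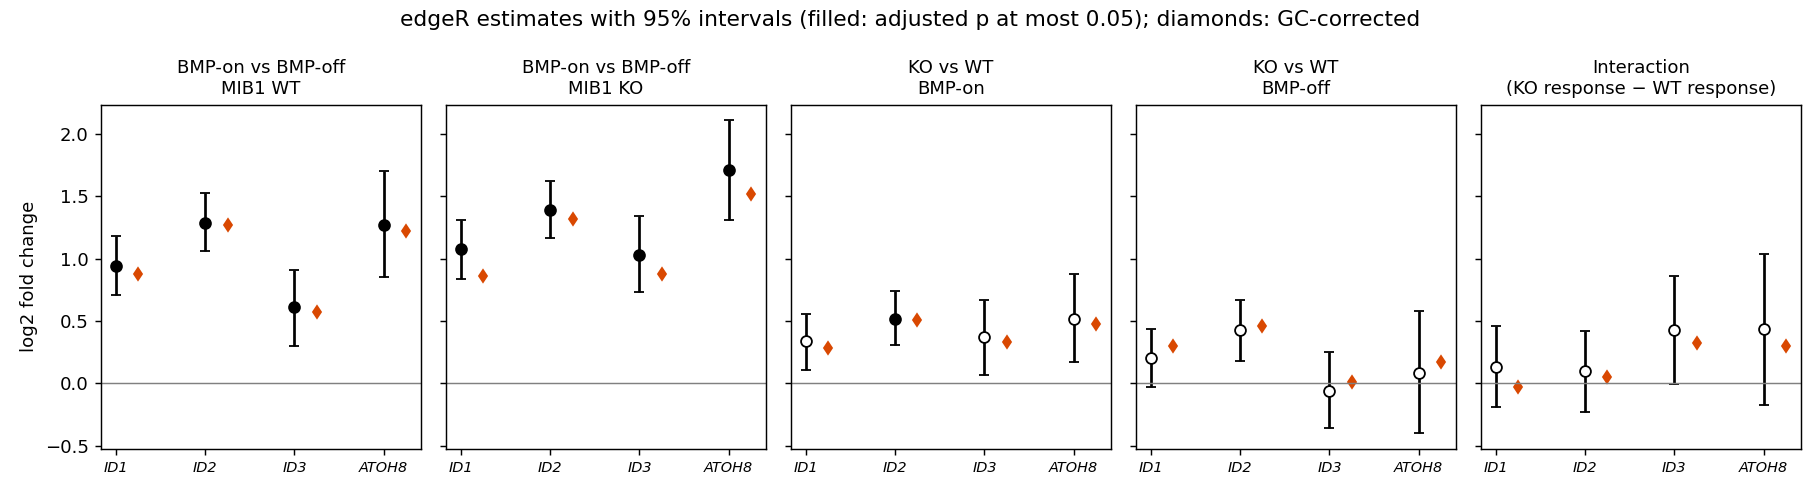
Log2 fold changes from edgeR with 95% intervals for 4 genes (x axis) in the 4 comparisons and the interaction, filled where the adjusted p was at most 0.05, with GC-corrected values as diamonds. All 8 BMP responses are filled, between 0.61 and 1.71, and of the KO against WT values only *ID2* with BMP-on (0.52) is.

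With BMP-off, where LDN was present throughout, KO against WT asks whether levels differed in cells kept under the block during BMP4. None of the 4 genes passed with edgeR, DESeq2 or limma-voom, and 0.00582% of genes were higher at an adjusted p of at most 0.05. *ID2* had a log2 fold change of 0.43 (SE 0.12, 95% interval 0.18 to 0.67, adjusted p = 0.299), and at 0.00194 it was the only unadjusted p of the 4 below 0.05. Its KO libraries lay above its WT libraries, as they did for 5.76% of genes. The *ID2* value was 0.46 after the GC correction (adjusted p = 0.0712) and 0.33 without the 3 libraries with a GC trend. *ID1* had 0.20 (SE 0.11, 95% interval -0.033 to 0.44, adjusted p = 0.546) and passed after the GC correction at 0.30 (adjusted p = 0.0142). With that correction 96 of 17188 genes passed in either direction, against 0.0407% in the main fit. *ATOH8* had 0.086 (95% interval -0.40 to 0.58) and *ID3* -0.058 (95% interval -0.36 to 0.25), and the sign of both depended on the libraries kept.

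The interaction, the BMP response of KO cells minus that of WT cells, asks whether the response itself differed. None of the 4 genes passed with edgeR or limma-voom. With DESeq2 *ID1*, *ID2* and *ID3* did not pass, and *ATOH8* had no adjusted p. With edgeR 0 of the 4 had an unadjusted p below 0.05, the smallest being 0.0516 for *ID3*. Of all genes, 0.0931% passed in either direction. The difference was 0.13 for *ID1* (95% interval -0.19 to 0.46) and 0.097 for *ID2* (95% interval -0.23 to 0.42), each with an interval that includes 0. It was 0.43 for *ID3* (SE 0.19, 95% interval -0.0037 to 0.86, adjusted p = 0.472) and 0.44 for *ATOH8* (SE 0.29, 95% interval -0.17 to 1.04, adjusted p = 0.575). The intervals for *ID1* and *ID2* end below a log2 difference of 0.5, and those of *ID3* and *ATOH8* do not. Without the 3 libraries with a GC trend *ID3* had 0.49. That fit left 1 library in MIB1 KO BMP-off, which is assumed to vary like the other groups, so only the estimate is given. After the GC correction with all libraries *ID3* had 0.32 (adjusted p = 0.281).

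The deviation of *ID3* from its group mean had the sign of the library's GC trend in 12 of 12 libraries, that of *ID1* in 10, that of *ATOH8* in 7 and that of *ID2* in 5 (see the plot of deviations against GC trend). The part of GC content in the differences between groups was not tested beyond the GC correction. *ID3* deviated by -0.34 on the log2 scale in MIB1 KO BMP-off replicate 2, 0.28 in replicate 3 of that group and -0.21 in MIB1 WT BMP-off replicate 1. *ID1* deviated by -0.28, 0.12 and -0.17 in the same libraries, *ID2* by -0.12, 0.16 and -0.090, and *ATOH8* by -0.085, 0.014 and -0.46. The longest *ID3* transcript has a GC content of 56.7%, above that of 78.4% of tested genes. That of *ID1* has 58.6%, that of *ATOH8* 57.3% and that of *ID2* 53.3%.

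**Figure D4:**
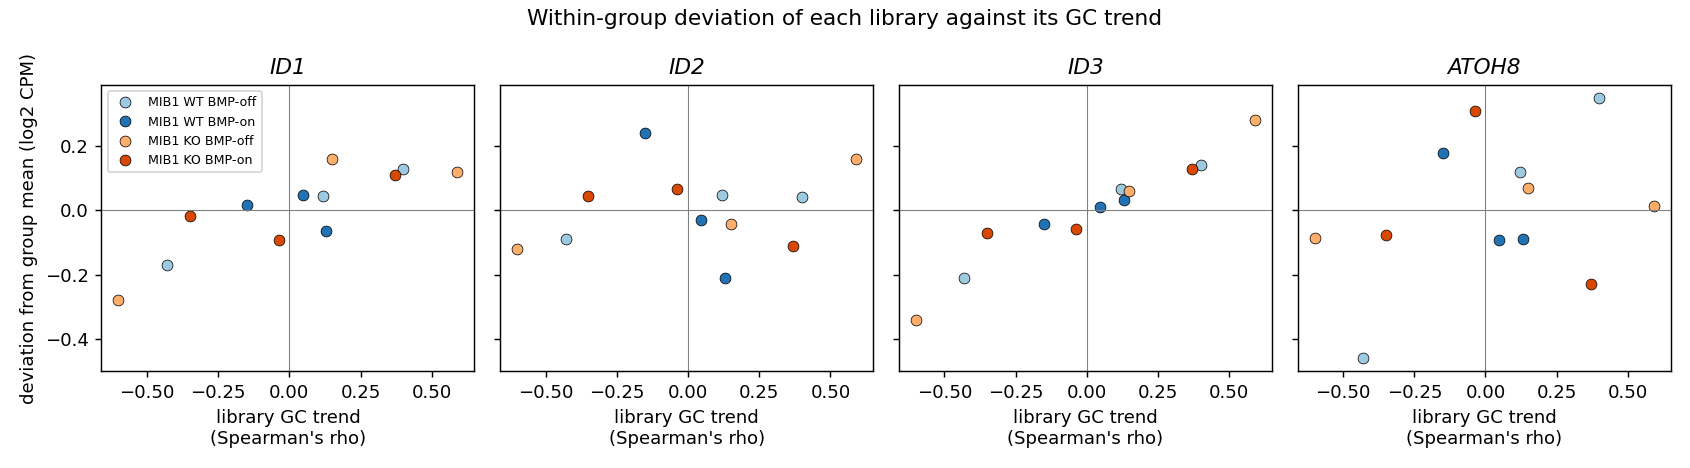
Deviation of each library from its group mean (y axis, log2 CPM) against the library's GC trend (x axis, Spearman's rho across genes), 12 libraries per panel, coloured by group. *ID3* points run from -0.34 at a rho of -0.60 to 0.28 at a rho of 0.59.

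Genes whose centred log2 CPM came closest to each gene over the 12 libraries were taken among 12836 genes with a mean of at least 50 counts. The measure is the root mean square difference, which counts the library differences shared by all genes of like GC content as well as the group differences. Closest to *ID3* were *FURIN* (0.049), a protease that processes BMP precursors, *OLFM2* (0.069) and *PPFIA3* (0.085), with transcript GC contents of 61.7%, 61.3% and 64.5%. Closest to *ID2* were *KANK4* (0.11), *GATA2* (0.13), a zinc-finger factor, and *SMAD7* (0.14), an inhibitory SMAD. Closest to *ID1* were *ELFN2* (0.12), *SOX9* (0.12), a factor of cartilage and lung development, and *NPR1* (0.13), a natriuretic peptide receptor. Closest to *ATOH8* were *KANK4* (0.18), *SMAD7* (0.21) and *GATA2-AS1* (0.21). Within the group, *ID1* and *ID3* differed by 0.15 and *ID2* and *ATOH8* by 0.22, less than any other pair, and *ID3* and *ATOH8* differed most (0.39).

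Among 17 other BMP target genes, 13 were tested, of which 8 rose in WT cells and 10 rose and 1 fell in KO cells. Of all genes tested, 1.91% rose in WT cells, 11.1% rose in KO cells and 1874 of 17188 fell in KO cells. The median log2 fold change of the list was 1.35 in WT and 1.42 in KO cells, against 0.0016 and 0.0056 over all genes tested. The feedback inhibitors *SMAD6* and *SMAD7* rose by 1.44 and 1.11 in WT cells (adjusted p = 8.19e-07 and 4.32e-06) and by 1.42 and 1.35 in KO cells (adjusted p = 1.42e-07 and 1.37e-07). *SMAD9*, a BMP SMAD that is itself a target, rose most in WT cells, by 2.41 (adjusted p = 3.76e-11), and by 2.19 in KO cells (adjusted p = 1.14e-11). *BAMBI*, a receptor decoy, rose by 1.35 and 2.31, *NOG*, a secreted antagonist, by 1.45 and 2.30, and *HEY1*, a bHLH repressor, by 1.43 and 2.31 in WT and KO cells. With BMP-on, 9 of the 13 were higher in KO than in WT cells (1.32% of all genes were), with a list median of 0.51 against 0.0025 over all genes. With BMP-off, 1 gene of the list passed with edgeR and with limma-voom and 2 with DESeq2. With edgeR it was *SMAD9*, at 0.97 (adjusted p = 5.65e-05), and 0.00582% of all genes were higher. The interaction passed for *BAMBI* (0.96, adjusted p = 0.00263) and *HEY1* (0.88, adjusted p = 0.0112), and for 0.0931% of all genes. The list was compiled from general knowledge with earlier results of these data known, so its direction is not independent evidence.

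**Figure D5:**
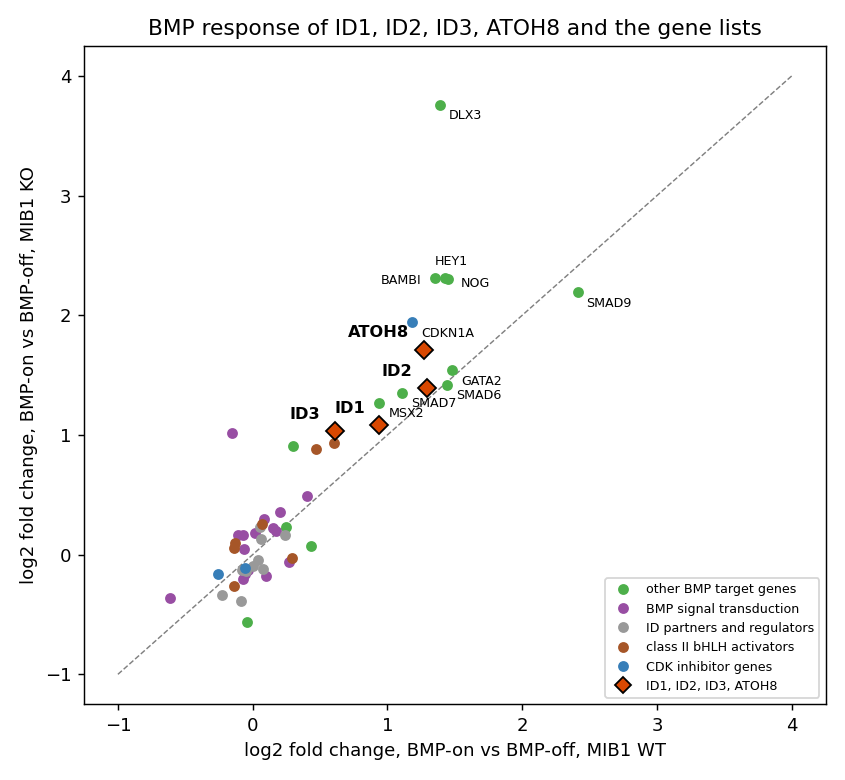
Log2 fold change with BMP-on against BMP-off in MIB1 WT cells (x axis) and in MIB1 KO cells (y axis) for *ID1*, *ID2*, *ID3* and *ATOH8* (diamonds) and the tested genes of 5 lists (points). The dashed line marks equal responses, *ID1* (0.94, 1.08) and *ID2* (1.29, 1.39) lie close to it and *BAMBI* (1.35, 2.31) lies above it.

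Of 19 genes of BMP signal transduction, 16 were tested. In the BMP response 1 passed in WT cells, and in KO cells 3 passed as higher and 2 as lower. Of all genes tested, 3.92% and 22.0% passed in either direction in WT and KO cells. *BMPR2*, the type II receptor, rose by 0.40 in WT cells (adjusted p = 0.00661) and by 0.49 in KO cells (adjusted p = 0.000295). The *BMPR2* call in WT cells held in 23 of 26 alternatives. In KO cells *ACVR1*, a type I receptor, also rose by 0.22 (adjusted p = 0.0168) and *SMURF2*, a ligase that targets SMADs and receptors, by 0.30 (adjusted p = 0.000271). There *SMAD4* fell by 0.20 (adjusted p = 0.0168) and *SMAD5* fell by 0.16 (adjusted p = 0.0295). These calls held in 18 of 26 alternatives for *ACVR1*, in 20 for *SMAD4*, in 15 for *SMAD5* and in 26 for *SMURF2*. With BMP-on in KO against WT, 1 gene of this list passed with edgeR and DESeq2 and 2 with limma-voom. With edgeR it was *SMURF2*, at 0.26 (adjusted p = 0.00443), and 3.67% of all genes passed in either direction. None of the 16 passed with BMP-off or in the interaction with edgeR, DESeq2 or limma-voom (3 and 3 at an unadjusted p below 0.05 with edgeR).

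Of 11 listed partners and regulators of ID proteins, 10 were tested. In the BMP response 1 passed in WT cells and 2 in KO cells, where 3.92% and 22.0% of all genes passed in either direction. Their median log2 fold change was 0.021 in WT cells and -0.11 in KO cells, against 0.0016 and 0.0056 over all genes. *TCF4*, an E protein, rose in WT cells, from 29.0 ± 2.14 to 34.3 ± 1.26 CPM (SD, n = 3; log2 fold change 0.24, adjusted p = 0.0390). *TCF12*, another E protein, fell by 0.14 in KO cells (adjusted p = 0.0482). *USP1*, a deubiquitinase known to stabilise ID proteins, fell by 0.39 in KO cells, from 159.6 ± 11.9 to 122 ± 2.33 CPM (SD, n = 3; adjusted p = 0.000330). The *TCF4* call was lost in 14 of 26 alternatives and the *TCF12* call in 19, while the *USP1* call held in 26 of 26. None of the 10 passed in KO against WT with either BMP condition or in the interaction with any of these tools, and 1 had an unadjusted p below 0.05 with edgeR in each.

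Most class II activators that E proteins pair with were not measured at a level that could be tested. Of 37 listed genes, 7 were tested. *LYL1*, a haematopoietic bHLH factor, rose by 0.93 in KO cells (adjusted p = 0.0274) at a mean of 0.722 CPM with BMP-off and 1.36 CPM with BMP-on, and no other gene of the list passed with edgeR. The *LYL1* call held in 17 of 25 alternatives. In that comparison 4 of the 7 had an unadjusted p below 0.05 with edgeR, as did 6099 of all 17188 genes, of which 22.0% passed. DESeq2 passed 2 of the 7 and limma-voom 3, against 3871 and 3987 of the 17188 genes. In each other comparison these counts for the list were 0. *MSC* and *TWIST2*, both bHLH repressors, were the most abundant of the list, at medians of 36.9 and 5.35 RPKM. The lineage factors *ATOH1*, *MYOD1*, *NEUROG1* and *OLIG2* had 0 counts in every library, which allows up to 3 counts in each.

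Of 5 CDK inhibitor genes that E or ID proteins are known to act on, 3 were tested. *CDKN1A*, which encodes the cell-cycle inhibitor p21, rose by 1.18 in WT cells (adjusted p = 7.17e-08) and by 1.94 in KO cells (adjusted p = 4.50e-11). With BMP-on it was higher in KO than in WT cells by 0.87 (adjusted p = 4.31e-06), and its interaction was 0.75 (adjusted p = 0.00843). *CDKN2A* and *CDKN2B* had 0 counts in every library. *CDKN1B* and *CDKN1C* did not pass in any comparison.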

How the data were processed

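RNA-seq of 12 MIB1-iKO (NCIH838) libraries was used, grouped by the sample labels. GSNAP alignment to GRCh38, after removal of ribosomal reads, and exon counting with HTSeqGenie were done by the authors. The deposited counts are whole numbers without normalization for 58302 Ensembl identifiers, of which 57532 had a GENCODE v44 symbol. The deposited RPKM values were normalized by the authors, and served to compare levels between genes and as alternatives. No sample column was left out. The labels name a low-input and a stranded library kit and do not say which was used for these libraries.

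Members and lists were chosen with earlier results of these data known. The test was edgeR 4.0.16 in R 4.3.3 (TMM, default filter, robust quasi-likelihood over all 12 libraries), with Benjamini-Hochberg adjustment over 17188 genes. A gene passed at an adjusted p up to 0.05. The study's added threshold, an absolute log2 fold change of 1 or more, defined a called gene. Named are the 5 genes, *MIB1*, list genes that passed in the comparison described and the 3 genes closest in pattern. *MSC*, *TWIST2*, the genes named at 0 counts, *CDKN1B*, *CDKN1C* and the marker genes were added once values were known. The log2 CPM for patterns used a prior count of 2. Alternatives were DESeq2 1.42.0, limma-voom (limma 3.58.1) with quantile normalization, other scalings and filters, only the groups compared, a replicate block, a GC correction (loess, span 0.4, on the longest transcript, known for 99.4% of tested genes), limma on log2(RPKM + 1) or log2(RPKM + 0.1) at a mean of at least 0.1 RPKM, and each library left out. Leaving out the libraries with a GC trend, the wide sequence window and its RefSeq starts (a first search used GENCODE starts and found the same genes) were chosen after the data were seen. The procedure was tested on simulated data. For pairs of replicates within a group, chi-square per degree of freedom against counting noise, a ratio of variances, was 2.98 to 17.2.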

Additional observations from a re-analysis of the deposited data

Results flagged for a closer look

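By the test of the difference itself, the BMP response differed between KO and WT cells for 2 of 13 tested BMP targets and 1 of 3 tested CDK inhibitor genes. It did so for no tested gene of the other lists and for none of the 4 tested *ID* and *ATOH8* genes. Of all genes, 0.0931% passed. BMP targets that did not pass with edgeR included *SMAD6* (-0.018), *SMAD9* (-0.22), *GATA2* (0.053), *SMAD7* (0.24) and *NOG* (0.85, adjusted p = 0.0849). The log2 difference was 0.96 for *BAMBI*, 0.88 for *HEY1* and 0.75 for *CDKN1A* (edgeR interaction, adjusted p = 0.00263, 0.0112 and 0.00843). *BAMBI* rose from 16.2 ± 0.401 to 80.7 ± 5.37 CPM in KO cells and from 13.8 ± 0.774 to 35.3 ± 4.35 CPM in WT cells (SD, n = 3). *HEY1* rose from 6.66 ± 0.185 to 33.0 ± 1.66 CPM in KO cells and from 5.14 ± 0.446 to 13.8 ± 1.16 CPM in WT cells (SD, n = 3). *CDKN1A* rose from 45.2 ± 2.54 to 173 ± 11.3 CPM in KO cells and from 41.6 ± 2.78 to 94.5 ± 9.05 CPM in WT cells (SD, n = 3). These calls held in 24 of 25 alternatives for *BAMBI*, in 17 for *HEY1* and in 21 for *CDKN1A*. The 95% intervals of the same difference were -0.19 to 0.46 for *ID1*, -0.23 to 0.42 for *ID2*, -0.0037 to 0.86 for *ID3* and -0.17 to 1.04 for *ATOH8*. Those of *ID1* and *ID2* end below the values of *BAMBI*, *HEY1* and *CDKN1A*, that of *ID3* includes 0.75 and that of *ATOH8* includes all 3. These 3 genes were picked because they passed, so their values do not stand for BMP targets in general.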

How the results depend on the processing

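In the BMP response, *ID1*, *ID2* and *ATOH8* passed in all 26 alternatives in both WT and KO cells, and *ID3* in all 26 in KO cells and in 15 of 26 in WT cells. Values that left-out libraries gave are ranges. The number of genes passing in the WT response was 4 and was 3 or 4 with each library left out, and it was 2 when a log2 fold change of at least 1 was required. It was 3, without *ID3*, with limma-voom, with no filter on low counts and with log2(RPKM + 1) without a filter. In the KO response it was 4 throughout. With BMP-on, KO against WT gave 1 passing gene, and 1 with a replicate block. It gave 3 with DESeq2, 2 with limma-voom, 3 with no filter on low counts and 4 with only the groups compared. With the GC correction it gave 3, with or without the replicate block. Of all genes, 668 of 17188 passed with DESeq2 in either direction, 597 of 17188 with limma-voom and 859 of 34618 with no filter. With only the groups compared 1237 of 16733 passed, and with the GC correction 1270 of 17188 (1153 with the replicate block). The main fit passed 3.67%. It gave 0 with log2(RPKM + 1) without a filter and 0 with a required log2 fold change of at least 1. With each library left out it was 1 to 3, the 3 being without MIB1 KO BMP-off replicate 2, where 862 of 17497 genes passed in either direction. With BMP-off it was 0, with each library left out 0 to 0, and 1 with no filter, with the GC correction and with the GC correction and replicate block. Of all genes, 233 of 34618, 96 of 17188 and 85 of 17188 passed in these fits, in that order. For the interaction it was 0, and with each library left out 0 to 0. No separate count is given without the 3 libraries with a GC trend, since 1 library was left in MIB1 KO BMP-off. Why these counts moved was not tested beyond the values given.

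Signs turned only for values that did not pass. With each library left out, KO against WT with BMP-off ranged from -0.20 to 0.096 for *ID3* and from -0.13 to 0.28 for *ATOH8*, and the interaction of *ID2* from -0.0076 to 0.22. For *ID3* in KO against WT with BMP-off these were 0.013 (GC correction), 0.0097 (with replicate block), 0.015 (without MIB1 WT BMP-off replicate 3) and 0.096 (without MIB1 KO BMP-off replicate 2). For *ATOH8* there they were -0.13 (without MIB1 WT BMP-off replicate 1) and -0.076 (without the 3 libraries). In the interaction *ID1* gave -0.026 (GC correction) and -0.024 (with replicate block), and *ID2* gave -0.0076 (without MIB1 WT BMP-on replicate 2). DESeq2 gave no adjusted p for *ATOH8* in the interaction.

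With counts per longest annotated transcript in place of RPKM, the shares within the *ID* sum, in the order WT BMP-off, WT BMP-on, KO BMP-off and KO BMP-on, were 13.3%, 16.0%, 15.5% and 15.6% for *ID1*. They were 1.38%, 2.14%, 1.90% and 2.38% for *ID2* and 85.3%, 81.8%, 82.6% and 81.9% for *ID3*. Replicate numbers were not treated as pairs in the main fit. Of 18 same-number pairs, 2 had a residual correlation above 0.1, with a range from -0.19 to 0.19. These correlations cannot show whether such libraries were set up together, since library differences such as the GC trends enter them too. The replicate block changed no other call of these genes. Depth limits *ID4*, with at most 11 counts, and *ATOH8*, with at most 130.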
